A study of Mus musculus with 8 samples.

Results

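Integrins are the receptors that tie cells to their matrix, and focal adhesions are the plaques in which their tails are joined to actin. A set of 33 mouse genes of this system was followed, made up of integrin alpha and beta subunits, the hyaluronan receptor gene Cd44, and adaptors that sit between receptor and cytoskeleton. Members were found by gene symbol in the platform annotation (57 probes), and a probe counted as usable where both arrays of at least 1 group detected it, that is, with a detection p-value (the probe against the array's negative controls) under 0.05. Of the 57 probes, 50 were usable, and each of the 33 genes, out of 16593 genes annotated on the array, had at least 1 of them. MLP-29, a line labelled as mouse liver progenitor cells, had been starved progressively for a week and then received control medium or recombinant hepatocyte growth factor (HGF) for 1, 6 or 24 h, all in medium with 2% bovine serum and all lysed at the same time. The experiment was run again for a second biological replicate, so that replicates a and b of the 4 groups gave 8 Illumina bead arrays, on which 8183 genes were tested, the 33 among them.

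In an integrin, an alpha and a beta subunit together bind a ligand such as laminin, fibronectin or collagen. Talin and the kindlins bind the beta tail and switch the receptor on, the complex of integrin-linked kinase, PINCH and parvin sits beside them, and paxillin, p130Cas, Src and the focal adhesion kinases carry the signal onward, while alpha-actinins, zyxin and the Ena/VASP proteins bind actin. HGF acts through the receptor Met, and in epithelial cells it is known for cell scattering and invasive growth, in which cells remake their contacts with the matrix. Variant isoforms of CD44 are known as co-receptors of Met.

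Values are log2 normalised signals on a scale of corrected signal plus 16, so that changes of dim genes are understated. A change is a log2 difference ± SE from a limma fit over all 8 arrays, and a gene is called where its p, adjusted over all 8183 genes by Benjamini-Hochberg, is under 0.05. From 11569 to 11893 probes were detected per array (45.0% to 46.3%), the median raw signal was 113.3 to 138 intensity units, and replicates a and b correlated across genes at 0.990 to 0.993. Of the 10 progenitor and biliary markers, 8 had a probe, and 6 of these, Krt7, Krt8, Krt18, Krt19, Cdh1 and Sox9, were detected on all 8 arrays, while Prom1 and Cldn4 were detected on none. Detection of a marker was read on its brightest probe only. No array of the 8 detected any of 6 endothelial markers. None detected 5 of 6 hepatocyte markers (albumin among them), 7 of 8 stellate cell and fibroblast markers, or 5 of 7 haematopoietic markers with a probe. In lysates of whole cultures, fewer cells of a type and less RNA per cell cannot be told apart. The labels give the control cells no time, so time in 2% serum and HGF cannot be told apart.

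After 6 h in HGF, 3 of the 12 integrin subunit genes (Itga6, Itgav and Itgb6) and the hyaluronan receptor gene Cd44 were higher, together with 5 genes of activators, actin linkers and LIM proteins. Of the 33 members, 9 rose at 6 h (Itga6, Cd44, Itgav, Itgb6, Pdlim7, Zyx, Tln1, Actn1 and Fermt2) and 2 fell (Itgb7 and Evl), against 9.25% of all genes higher and 12.1% lower (21.4% in all). The members that rose were 27.3% of the set and those that fell 6.06%. The set was chosen with earlier results of these data known, so these shares describe it and test nothing. Of the 9, Tln1 passed the detection filter only through the HGF arrays. Without control replicate a, 3 rose and 1 fell, and between 6 and 7 were called without control replicate b or without either 6 h array. In these left-out fits, fewer of all genes were called as well. With the replicate letter as a block, 12 rose and 2 fell (12.5% and 16.2% of all genes). The median change over the members was 0.39, beside -0.03 over all genes tested. Without HGF 6 h replicate b these medians were 0.12 and -0.01, with median scaling 0.22 and -0.16, and with the authors' values 0.25 and -0.03. Both arrays at 6 h lay above both control arrays for 16 of 33 members (28.3% of all genes did so) and below them for 7 (33.4% of all genes). Tln1 and Ajuba are among the 16 and passed the detection filter only through HGF arrays, Ajuba only through those at 6 h. At 1 h, 0 members rose and 1, Itgb7, fell (2.62% and 2.16% of all genes, 4.78% in all), with a median of 0.06 beside -0.05 over all genes. Without control replicate a or b, or without HGF 1 h replicate a, 0 were called at 1 h. Without adjustment, 6 members had p under 0.05 at 1 h, beside 20.2% of all genes. With the block, 3 rose (Bcar1, Pxn and Zyx) and 1 fell at 1 h (4.51% and 4.44% of all genes). Both arrays at 1 h lay above both controls for 9 members (19.2% of all genes) and below them for 5 (29.8% of all genes). These 9 include Tln1, and the 5 include Ajuba, which was detected on 0 of the control and 1 h arrays. At 24 h, limma without a block called 0 of 33 members against control and 0% of all genes. This 0% depends on the fit. With the block, 1 member (Tln1) rose and 0 fell at 24 h (1.96% and 3.29% of all genes). With the authors' values, 0 members and 1.26% of all genes were called. Without adjustment, 7 members had p under 0.05 at 24 h (3 higher, 4 lower), beside 19.9% of all genes. Both arrays at 24 h lay above both controls for 7 members (24.4% of all genes) and below them for 9 (28.3% of all genes). Here the 7 include Tln1, and the 9 include Enah, which passed the filter only through the control and 6 h arrays.

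**Figure D1:**
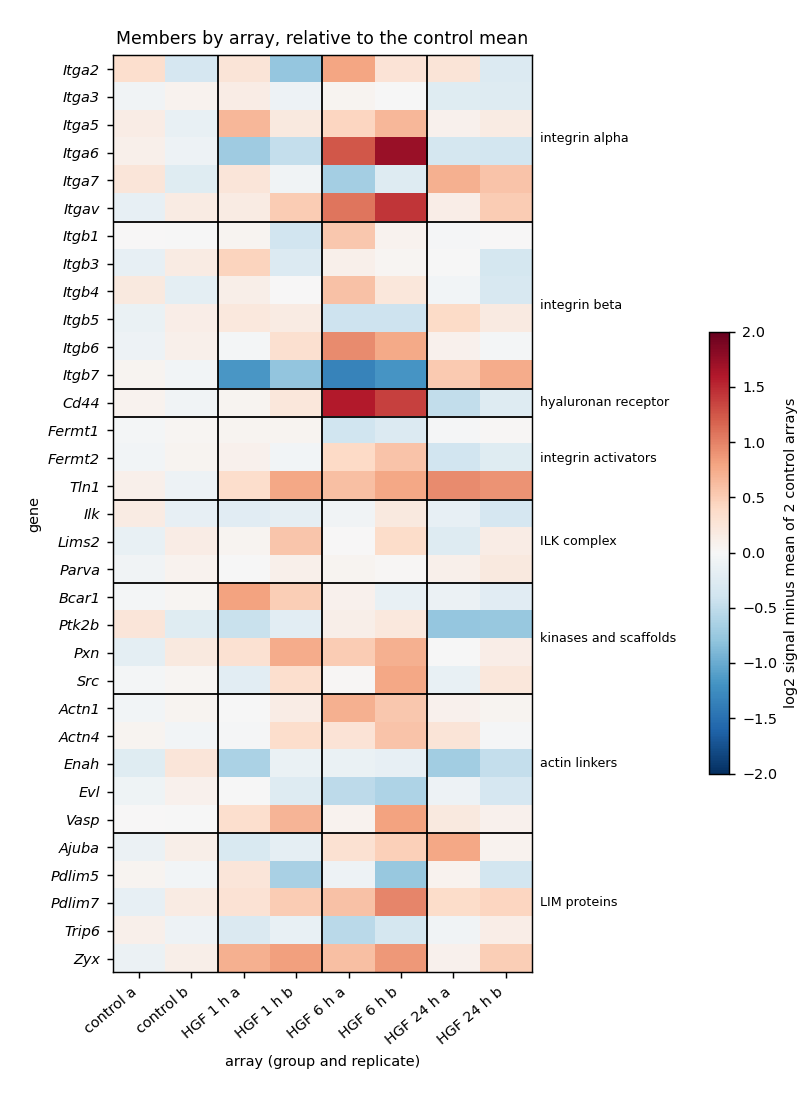
Heat map of the 33 members (rows, grouped by role) on the 8 arrays (columns), as log2 signal minus the mean of the 2 control arrays, red above and blue below that mean. Cd44, Itga6 and Itgav are dark red on both arrays at 6 h and Itgb7 is blue on the 4 arrays at 1 and 6 h and red on both at 24 h.

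**Figure D2:**
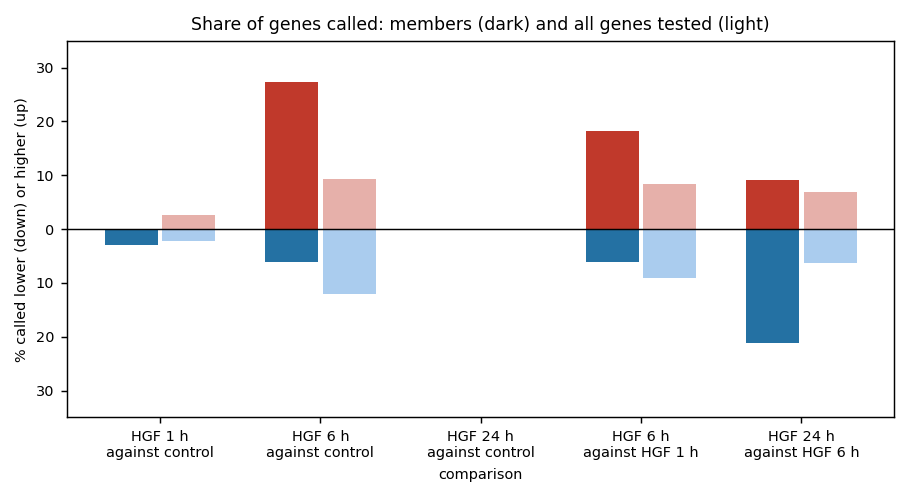
Share of genes called higher (upward bars, red) and lower (downward bars, blue), in percent, for the 33 members (dark) and all 8183 genes tested (light) in 5 comparisons. At 6 h 27.3% of members were called higher beside 9.25% of all genes, and no gene was called at 24 h against control in this fit, which has no replicate block. Members were chosen with earlier results of these data known.

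Promoter sequences are shown for members called at 6 h: Cd44 and Itgb7, which had the largest changes up and down among called members with an entry in the table, and Zyx, Fermt2 and Itgb6, which were the called members with AP-1 letters or a CArG box in a window. The windows of Evl, which hold TEAD letters, are not shown. Windows are the 250 bases before the annotated start from RefSeq (build GRCm38.p6), written 5′ to 3′ on the strand of the gene, and 25 of the 33 members had an entry. Itga6 was not among them. The motifs searched on both strands were TGANTCA, the AP-1 site, GGAATG, the site of TEAD factors, GGGCGG, the GC box, and the CArG box of SRF by its name. Capitals mark a match to AP-1, TEAD or CArG letters, and GC boxes are left in lower case. The capitals of 1 motif overlap no other motif in these windows. The windows lie at chr6:42349578-42349827, plus strand (Zyx), chr14:45530066-45530315, minus strand (Fermt2), chr2:60673694-60673943, minus strand (Itgb6, the inner of its 2 annotated starts), chr2:102901666-102901915, minus strand (Cd44) and chr15:102231936-102232185, minus strand (Itgb7).
Zyx: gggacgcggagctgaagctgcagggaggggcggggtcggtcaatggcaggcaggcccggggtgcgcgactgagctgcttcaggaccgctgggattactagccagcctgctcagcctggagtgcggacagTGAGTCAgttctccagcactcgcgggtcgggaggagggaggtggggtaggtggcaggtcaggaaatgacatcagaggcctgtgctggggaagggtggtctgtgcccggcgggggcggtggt
Fermt2: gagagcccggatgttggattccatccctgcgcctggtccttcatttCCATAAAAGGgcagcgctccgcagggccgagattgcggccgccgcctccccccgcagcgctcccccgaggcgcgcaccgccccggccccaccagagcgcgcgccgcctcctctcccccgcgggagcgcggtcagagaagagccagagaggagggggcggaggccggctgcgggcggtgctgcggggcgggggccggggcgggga
Itgb6: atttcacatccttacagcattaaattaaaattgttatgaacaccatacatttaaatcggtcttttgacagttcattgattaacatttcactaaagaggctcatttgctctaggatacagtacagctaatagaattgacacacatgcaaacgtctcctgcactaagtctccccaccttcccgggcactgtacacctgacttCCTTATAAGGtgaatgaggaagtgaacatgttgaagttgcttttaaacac
Cd44: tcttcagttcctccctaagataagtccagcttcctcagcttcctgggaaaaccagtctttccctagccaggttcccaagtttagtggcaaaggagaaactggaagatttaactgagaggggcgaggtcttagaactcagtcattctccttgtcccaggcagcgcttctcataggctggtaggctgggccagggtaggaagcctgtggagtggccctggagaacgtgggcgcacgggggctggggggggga
Itgb7: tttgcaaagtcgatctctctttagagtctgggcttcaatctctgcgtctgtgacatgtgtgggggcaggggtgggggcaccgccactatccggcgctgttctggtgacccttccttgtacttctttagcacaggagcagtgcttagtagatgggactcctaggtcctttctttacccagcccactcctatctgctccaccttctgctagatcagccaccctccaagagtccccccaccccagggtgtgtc

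In Zyx the AP-1 letters begin 121 bases before the start used. In Fermt2 a CArG box begins 204 bases before the start used, and in Itgb6 a CArG box begins 50 bases before the inner start. All of these stretches lie within the annotated span of their gene. The windows of Cd44 and Itgb7 hold none of the 4 motifs. Over the 25 member genes with an entry, AP-1 letters were found in 2 (Actn4 and Zyx), beside 6.75% of all 32851 promoter windows in the table. A gene with several annotated starts has several windows and counts once if any holds the letters. TEAD letters were found in 5 (Actn4, Ajuba, Evl, Itgb1 and Trip6), beside 12.6% of all windows, and a CArG box in 2 (Fermt2 and Itgb6), beside 1.47%. A match is a description of letters and not a binding site.

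Among the integrin alpha subunits, 2 of 6 rose at 6 h and 0 fell (9.25% and 12.1% of all genes). Itga6 encodes the alpha subunit of laminin receptors, which pairs with the beta subunit of hemidesmosomes. It read 8.16 and 7.97 in control cells, 7.35 and 7.58 at 1 h, 9.30 and 9.79 at 6 h and 7.70 and 7.70 at 24 h. Both arrays at 6 h were above all 6 others, and both at 1 h were below both controls. The change was 1.48 ± 0.18 at 6 h (adjusted p = 0.00243 by limma, 2.8-fold), while -0.59 ± 0.18 at 1 h was not called (adjusted p = 0.125). Itgav, the alpha subunit of receptors for RGD ligands such as vitronectin and fibronectin, read 7.53 and 7.84 in control cells, 7.84 and 8.19 at 1 h, 8.75 and 9.11 at 6 h and 7.81 and 8.20 at 24 h. Its 6 h arrays stood above all the others, with b above a in every group. It was 1.25 ± 0.21 higher at 6 h (adjusted p = 0.00748, 2.37-fold).

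The other alpha subunits were not called against control at any time. Itga5, of the fibronectin receptor, read 8.68 and 8.39 in control cells, 9.21 and 8.72 at 1 h, 8.97 and 9.20 at 6 h and 8.63 and 8.70 at 24 h, and gave 0.55 ± 0.19 at 6 h (adjusted p = 0.0784). Both its 1 h and both its 6 h arrays lay above both controls. Itga3, of a laminin receptor, read 12.88 and 13.02 in control cells, 13.10 and 12.85 at 1 h, 13.00 and 12.95 at 6 h and 12.71 and 12.69 at 24 h. Its groups overlapped at 1 and 6 h, and the 6 h change was 0.02 ± 0.13, with a 95% interval of -0.28 to 0.33. Itga7, of a laminin receptor best known from muscle, read 7.76 and 7.27 in control cells, 7.76 and 7.44 at 1 h, 6.83 and 7.25 at 6 h and 8.23 and 8.09 at 24 h. It was lowest at 6 h and highest at 24 h. Itga2, of a collagen receptor, read 8.13 and 7.47 in control cells, 8.05 and 7.02 at 1 h, 8.59 and 8.07 at 6 h and 8.05 and 7.53 at 24 h. Replicate a exceeded replicate b in each of the 4 groups, and the 6 h change of 0.53 ± 0.38 was not called (adjusted p = 0.354) except with the replicate block (adjusted p = 0.0396).

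Of the 6 integrin beta subunits, Itgb6 rose and Itgb7 fell at 6 h (9.25% and 12.1% of all genes). Itgb6 encodes a beta subunit that pairs with the product of Itgav and is known in epithelia for activating latent TGF-beta. It read 11.45 and 11.67 in control cells, 11.52 and 11.89 at 1 h, 12.51 and 12.32 at 6 h and 11.64 and 11.53 at 24 h, with the 6 h arrays above all the others. The change at 6 h was 0.85 ± 0.16 (adjusted p = 0.0115, 1.8-fold). In a fit of single probes over all kept probes, its 3 probes gave 0.85, 0.93 and 0.85 at 6 h, all called by limma (adjusted p = 0.0132 to 0.0218). The call of the gene was lost without control replicate a (adjusted p = 0.0628) and without HGF 6 h replicate a (adjusted p = 0.0577).

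Itgb7 was the 1 integrin gene called lower against control, at 1 h and at 6 h. Its product pairs with the alpha subunits encoded by Itga4 and Itgae and is best known from lymphocytes that home to the gut. It read 11.98 and 11.88 in control cells, 10.77 and 11.14 at 1 h, 10.59 and 10.75 at 6 h and 12.45 and 12.66 at 24 h. The arrays at 1 and 6 h lay below all others, and those at 24 h above all others. The change was -0.97 ± 0.16 at 1 h (adjusted p = 0.0179) and -1.25 ± 0.16 at 6 h (adjusted p = 0.00268, 2.38-fold lower), and 0.63 ± 0.16 at 24 h was not called (adjusted p = 0.121). The call at 1 h was lost without either control replicate and without HGF 1 h replicate a (adjusted p up to 0.109). Of its partners, looked up after the values of Itgb7 were seen, Itga4 was detected on 0 of 8 arrays and the 6 probes of Itgae on at most 1. Of the leukocyte markers, Ptprc, Lyz2, Cd3e, Itgam and Itgb2 were detected on 0 of 8 arrays and Coro1a on 3, each by its brightest probe. The summed log2 level of the haematopoietic list was 13.85 to 13.87 in control cells, 14.29 to 14.33 at 1 h, 13.31 to 13.35 at 6 h and 13.89 to 13.95 at 24 h. That sum was set by Cd14, the gene of a lipopolysaccharide co-receptor, at a mean of 13.84, 14.29, 13.30 and 13.90 in the same order. The sum was above control at 1 h and 24 h and below it at 6 h, while Itgb7 was below control at 1 h and 6 h and above it at 24 h, and the part of the sum in the result was not tested.

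The remaining beta subunits were not called against control. Itgb4, the beta subunit of hemidesmosomes, read 13.30 and 12.90 in control cells, 13.22 and 13.10 at 1 h, 13.68 and 13.33 at 6 h and 13.04 and 12.78 at 24 h. Its 6 h arrays exceeded the control arrays narrowly, and the change of 0.41 ± 0.19 had an adjusted p = 0.161 (0.0426 with the block). A second, dimmer probe of Itgb4 gave 0.22 (adjusted p = 0.566). Itgb5, which pairs with the product of Itgav in a vitronectin receptor, read 11.08 and 11.36 in control cells, 11.42 and 11.38 at 1 h, 10.80 and 10.81 at 6 h and 11.60 and 11.40 at 24 h. It was lowest at 6 h (-0.41 ± 0.14, adjusted p = 0.07). Itgb3 read 6.15 and 6.47 in control cells, 6.75 and 6.03 at 1 h, 6.41 and 6.35 at 6 h and 6.30 and 5.96 at 24 h, and each HGF group overlapped the control arrays. Itgb1, the common partner of many alpha subunits, read 9.15 and 9.13 in control cells, 9.19 and 8.75 at 1 h, 9.68 and 9.21 at 6 h and 9.11 and 9.14 at 24 h, and its 6 h change was 0.31 ± 0.20 (adjusted p = 0.305). A second, dimmer probe of Itgb1 gave 1.08 and was called (adjusted p = 0.0133), so the probes of this gene disagree on the call.

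Cd44 had, with Itga6, the largest rise of the set at 6 h. It encodes the receptor for hyaluronan. Its brightest probe read 11.36 and 11.23 in control cells, 11.35 and 11.51 at 1 h, 12.88 and 12.67 at 6 h and 10.80 and 11.04 at 24 h. Both 6 h arrays stood over a unit above all others, and both 24 h arrays lay below both controls. The change was 1.48 ± 0.15 (adjusted p = 0.00137, 2.8-fold), and 0.14 ± 0.15 at 1 h was not called. Of 6 probes for the gene, 5 were kept. The other 4 gave 1.9, 1.61, 1.59 and 0.47 at 6 h, of which the last was not called (adjusted p = 0.169). The probe at 1.59 after 6 h gave 1.41 after 1 h, which was not called (adjusted p = 0.117). The annotation gives these 4 probes another transcript accession than the brightest one.

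**Figure D3:**
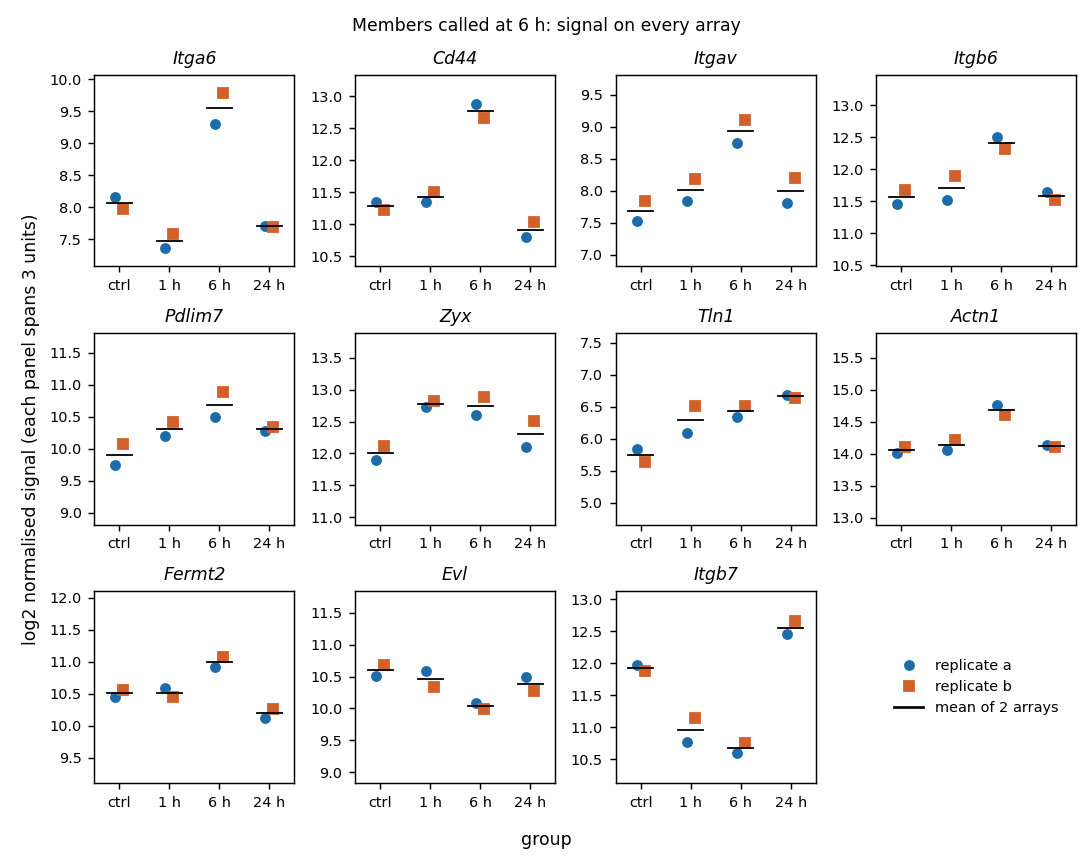
Signal of the 11 members called at 6 h on every array, 1 panel a gene, with the log2 normalised signal on the vertical axis and the group on the horizontal axis. Circles are replicate a, squares replicate b and bars the mean of 2 arrays. Each panel spans 3 log2 units. Itga6 and Cd44 peak at 6 h, Itgb7 is lowest there, and Tln1 is highest at 24 h.

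The activators that bind the beta tail were higher at 6 h in part, 2 of 3 (9.25% of all genes). Tln1, the gene of talin, read 5.85 and 5.63 in control cells, 6.09 and 6.51 at 1 h, 6.34 and 6.52 at 6 h and 6.69 and 6.64 at 24 h. It was not above background on either control array and was detected on all 6 HGF arrays, so it passed the detection filter only through the groups in which it is high, and its difference at 6 h is given as at least 1.46-fold (adjusted p = 0.0257). The bound compares the mean of the HGF arrays with the dimmest signal that counted as detected on each control array, or with the Tln1 signal there where that was brighter. It is a point value without sampling error. Every adjusted p given for Tln1 belongs to the fitted difference and not to the bound, on which no test was run. The bound was 1.33-fold at 1 h (adjusted p = 0.119) and 1.72-fold at 24 h (adjusted p = 0.0816, and 0.0357 with the block, under which it was the 1 member called higher at 24 h, with 0 lower, beside 1.96% and 3.29% of all genes). The call at 6 h was lost without background correction and with the authors' normalised values (adjusted p = 0.0621 and 0.0714), and without any 1 of the control or 6 h arrays (adjusted p up to 0.122). Fermt2, which encodes kindlin-2, read 10.45 and 10.57 in control cells, 10.59 and 10.45 at 1 h, 10.91 and 11.08 at 6 h and 10.13 and 10.26 at 24 h. The 6 h arrays were the highest of all and the 24 h arrays the lowest, and the change at 6 h was 0.49 ± 0.13 (adjusted p = 0.0333). This call held in 2 of 8 fits with an array left out and not with median scaling (adjusted p = 0.256). Fermt1, of the epithelial kindlin, read 11.32 and 11.39 in control cells, 11.41 and 11.40 at 1 h, 10.96 and 11.09 at 6 h and 11.33 and 11.38 at 24 h. It went the other way at 6 h (-0.33 ± 0.11), short of the threshold (adjusted p = 0.0778).

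The complex of integrin-linked kinase, with 3 genes tested, had no called member in any of the 5 comparisons. Of all genes, 21.4% were called at 6 h, so 0 of 3 does not set this complex apart. The brightest probe of Ilk gave 0.06 ± 0.16 at 6 h, with a 95% interval of -0.31 to 0.43, and a second probe 0.51 (adjusted p = 0.111). Parva, the gene of alpha-parvin, gave 0.04 ± 0.12 (95% interval -0.24 to 0.32), and all 8 of its arrays lay between 12.21 and 12.48. For Lims2, of a PINCH protein, the brightest probe gave 0.19 ± 0.23 with an interval of -0.34 to 0.72, and the others 0.47 and 0.09 (adjusted p = 0.148 and 0.756). Each interval is that of 1 probe and sets no limit on the gene.

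Kinases and scaffolds of the signalling layer were not called at 6 h, 0 of 4, beside 21.4% of all genes. With 4 genes this does not set the layer apart. Bcar1, which encodes the scaffold p130Cas, read 10.24 and 10.31 in control cells, 11.08 and 10.77 at 1 h, 10.36 and 10.12 at 6 h and 10.15 and 10.04 at 24 h. Its 1 h arrays stood above all others, at 0.65 ± 0.15 against control (adjusted p = 0.0571, and 0.0277 with the block). Pxn, of the scaffold paxillin, read 8.09 and 8.49 in control cells, 8.60 and 9.04 at 1 h, 8.80 and 9.00 at 6 h and 8.28 and 8.43 at 24 h. The arrays at 1 and 6 h were above both controls, at 0.53 ± 0.20 and 0.61 ± 0.20 (adjusted p = 0.193 and 0.0616, and 0.044 and 0.0116 with the block). Ptk2b, of a kinase related to focal adhesion kinase, read 8.23 and 7.73 in control cells, 7.53 and 7.77 at 1 h, 8.10 and 8.19 at 6 h and 7.20 and 7.22 at 24 h. Its 24 h arrays were the lowest of all, at -0.77 ± 0.18 (adjusted p = 0.105). Src, of the kinase that phosphorylates many of these proteins, gave 0.39 ± 0.28 at 6 h (95% interval -0.25 to 1.04).

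Of the 5 genes of proteins that bind actin, Actn1 rose and Evl fell at 6 h (9.25% and 12.1% of all genes). Actn1, the gene of alpha-actinin 1, read 14.02 and 14.11 in control cells, 14.06 and 14.21 at 1 h, 14.77 and 14.61 at 6 h and 14.14 and 14.11 at 24 h. The 6 h arrays stood clear of the other 6, at 0.62 ± 0.12 (adjusted p = 0.0129), although the call was lost with median scaling (adjusted p = 0.0664) and without control replicate a or HGF 6 h replicate a (adjusted p up to 0.066). The brightest probe of its paralogue Actn4 gave 0.42 ± 0.18 (adjusted p = 0.135), and the others 0.51 and 0.91 (adjusted p = 0.0617 and 0.116). Evl, of the Ena/VASP family, read 10.51 and 10.69 in control cells, 10.59 and 10.34 at 1 h, 10.08 and 9.99 at 6 h and 10.50 and 10.27 at 24 h. It was lowest on both 6 h arrays, at -0.57 ± 0.15 (adjusted p = 0.0323), a call lost with median scaling and without any 1 of the control or 6 h arrays (adjusted p up to 0.134). The relatives Vasp and Enah gave 0.44 ± 0.23 (adjusted p = 0.219) and -0.15 ± 0.21 (adjusted p = 0.661) and were not called. Enah was detected on 0 of 2 arrays at 24 h.

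Among the LIM domain proteins, Zyx and Pdlim7 rose at 6 h and 3 of 5 were not called, beside 9.25% of all genes higher and 12.1% lower. Zyx, the gene of zyxin, read 11.90 and 12.12 in control cells, 12.72 and 12.83 at 1 h, 12.61 and 12.88 at 6 h and 12.10 and 12.51 at 24 h. All 4 arrays at 1 and 6 h were above the other 4, at 0.76 ± 0.18 after 1 h (adjusted p = 0.0554, and 0.0121 with the block) and 0.73 ± 0.18 after 6 h (adjusted p = 0.025). Pdlim7 encodes a PDZ and LIM protein bound to actin filaments and read 9.74 and 10.07 in control cells, 10.19 and 10.41 at 1 h, 10.49 and 10.88 at 6 h and 10.27 and 10.34 at 24 h. Every HGF array exceeded both controls, with 0.78 ± 0.18 at 6 h (adjusted p = 0.0212). Both calls at 6 h were lost without control replicate a or without HGF 6 h replicate b, and that of Zyx also without control replicate b (adjusted p up to 0.126). Trip6 (-0.45 ± 0.14, adjusted p = 0.0633) was not called. Neither was Ajuba, which was detected on 0 of the 4 control and 1 h arrays and passed the detection filter only through the 6 h arrays. Its bound at 6 h was 1.14-fold, a point value without sampling error. The fitted difference of Ajuba at 6 h had an adjusted p = 0.253, so no rise was established. For Pdlim5 the brightest probe gave -0.43 ± 0.32, while 2 others gave 0.52 (adjusted p = 0.0579) and 0.67 (adjusted p = 0.0279), so that neither direction nor call is settled for this gene.

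**Figure D4:**
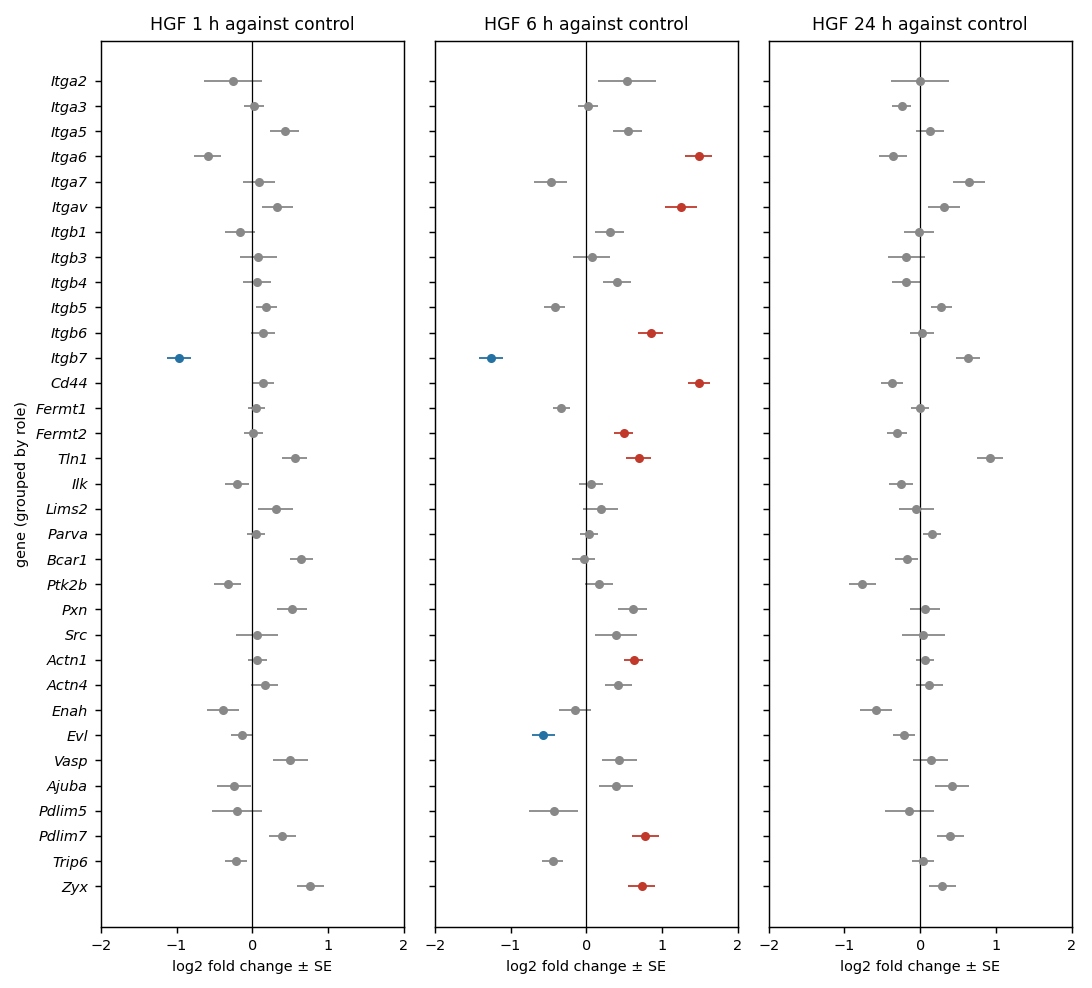
Log2 fold change ± SE (horizontal axis) of each member (rows, grouped by role) at 1, 6 and 24 h of HGF against control. Red points were called higher, blue points lower and grey points not called. The 9 red points are all in the 6 h panel, and Itgb7 is blue at 1 and 6 h.

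**Figure D5:**
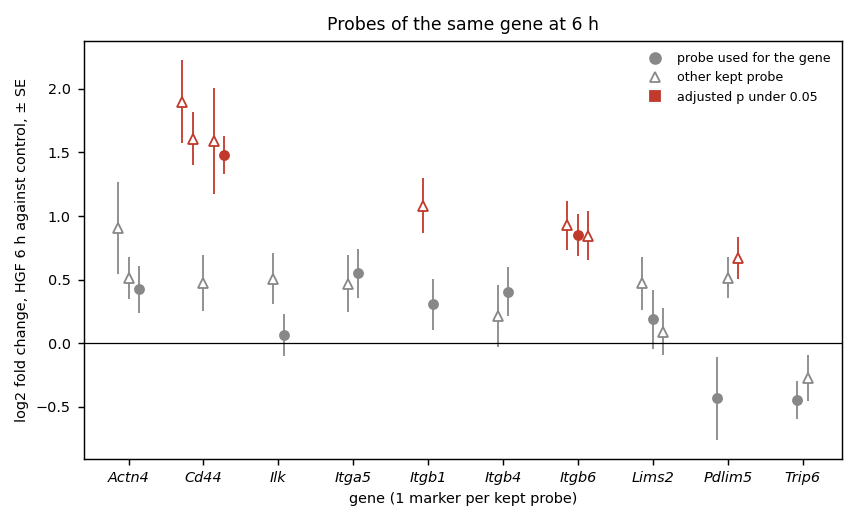
Log2 fold change ± SE at 6 h against control for each kept probe of the 10 members with several. Filled circles are the probe used for the gene, open triangles the others, and red marks an adjusted p under 0.05. The 3 probes of Itgb6 lie together, 4 of 5 for Cd44 are called, and those of Itgb1 and Pdlim5 disagree.

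The direct test between 6 h and 1 h asked which members changed after the first hour. Here 6 members were higher and 2 lower at 6 h than at 1 h (8.32% and 9.03% of all genes), or 24.2% of the set beside 17.4% of all genes. Median scaling left 3 higher and 0 lower, and 2 were left without HGF 1 h replicate a or HGF 6 h replicate b, Itga6 and Cd44. Without HGF 6 h replicate a, 4 were called, and without HGF 1 h replicate b, 5. Of all genes, 8.71% were called with median scaling, and fewer were called in these left-out fits than with all arrays. Itga6 (2.07 ± 0.18, adjusted p = 0.000922) and Cd44 (1.34 ± 0.15, adjusted p = 0.00188) were the steepest. Itgav, Itgb6, Actn1 and Fermt2 were higher as well, by 0.48 to 0.91. Bcar1 (-0.68 ± 0.15, adjusted p = 0.0229) and Itgb5 (-0.60 ± 0.14, adjusted p = 0.0269) were lower at 6 h than at 1 h. Zyx did not differ detectably between these times (-0.03 ± 0.18, 95% interval -0.44 to 0.38), nor did Tln1 (0.13 ± 0.17, 95% interval -0.26 to 0.52). With the replicate block, Itga2 (0.79 ± 0.15 in the blocked fit, adjusted p = 0.0125) was called higher and Fermt1 (-0.38 ± 0.11, adjusted p = 0.0422) lower. This made 7 higher and 3 lower (11.5% and 12.5% of all genes).

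Between 24 h and 6 h the receptors that had been high at 6 h were lower again. In this comparison, 3 members were higher and 7 lower at 24 h than at 6 h (6.92% and 6.31% of all genes, 13.2% in all), with a median of -0.32 beside 0.01 over all genes. It shares the 6 h arrays with the comparisons above, so the values are given side by side and not as separate evidence. The 7 lower ones were Cd44 (-1.86 ± 0.15, adjusted p = 0.00147), Itga6 (-1.85 ± 0.18, adjusted p = 0.00194), Ptk2b (-0.93 ± 0.18), Itgav (-0.93 ± 0.21), Itgb6 (-0.83 ± 0.16), Fermt2 (-0.80 ± 0.13) and Actn1 (-0.56 ± 0.12), with adjusted p from 0.00147 to 0.0267. Itgb7 (1.88 ± 0.16, adjusted p = 0.00164, 3.69-fold), Itga7 (1.11 ± 0.22, adjusted p = 0.0161) and Itgb5 (0.69 ± 0.14, adjusted p = 0.0179) were the 3 higher at 24 h. Without HGF 24 h replicate a, 3 were called, Cd44, Itga6 and Itgb7, and 4 to 6 were called without any other 1 of the 24 h or 6 h arrays. With the block, 3 were higher and 11 lower (9.69% and 9.59% of all genes). Itga2, Itgb4, Pxn and Zyx were the 4 added, at adjusted p = 0.0492, 0.0156, 0.0226 and 0.0436. Against control at 24 h, the 95% interval was -0.36 to 0.40 for Itgb6, -0.22 to 0.35 for Actn1, -0.17 to 0.81 for Itgav and -0.71 to -0.04 for Cd44. Tln1 did not differ detectably between 24 h and 6 h (0.23 ± 0.17, 95% interval -0.16 to 0.62).

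Other genes of the pathway came from a list of 88 further integrin subunits, adaptors and tetraspanins. A probe was annotated for 71 of the 88, and 41 were tested. At 6 h, 3 rose and 1 fell (9.76% of the list, beside 21.4% of all genes), with a median of 0.12. The tetraspanin gene Cd9 (0.58 ± 0.12), the phosphatase gene Ptpn1 (0.48 ± 0.14) and Pdlim1 (0.60 ± 0.17) rose, and Pdlim4 (-1.56 ± 0.38) fell. At 1 h, 2 rose (4.88% beside 4.78% of all genes), the LIM protein gene Csrp1 (0.76 ± 0.13) and the tensin gene Tns4 (0.97 ± 0.21), and 0 fell. Between 24 h and 6 h, 1 was higher and 4 were lower at 24 h (12.2% beside 13.2% of all genes). The lower ones were the matrix receptor gene Sdc4 (-0.85 ± 0.12), the tetraspanin gene Cd82 (-0.99 ± 0.17), Csrp1 (-0.74 ± 0.13) and Vcl (-0.71 ± 0.16), which encodes vinculin. Between 6 h and 1 h, 1 was higher at 6 h, Cd151 (0.45 ± 0.12), a tetraspanin that binds laminin receptors, and 1 was lower, Pdlim4 (4.88% beside 17.4% of all genes). At 24 h against control, limma called 0 of 41, and 10 had an unadjusted p under 0.05 (24.4% beside 19.9% of all genes). With the replicate block, 4 higher and 0 lower were called at 1 h (4.51% and 4.44% of all genes). At 6 h these were 3 and 2 (12.5% and 16.2% of all genes), and at 24 h 1 and 3 (1.96% and 3.29%). Between 6 h and 1 h they were 3 higher and 2 lower (11.5% and 12.5% of all genes). Between 24 h and 6 h they were 2 higher and 7 lower (9.69% and 9.59% of all genes).

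Of 44 genes of integrin ligands, their processing and hyaluronan synthesis, 20 were tested. This list and the list before it were also chosen with earlier results of these data known. At 6 h, 6 rose and 2 fell (40% of the list, beside 21.4% of all genes), with a median of 0.08. Those that rose included Ccn1 (1.10 ± 0.12), a matricellular ligand of integrins, Adam9 (0.70 ± 0.13), and the basement membrane collagen genes Col4a1 (0.59 ± 0.11) and Col4a2 (0.76 ± 0.15). At 1 h, Ccn1 rose (3.46 ± 0.12) and 0 fell (5% beside 4.78% of all genes). Between 24 h and 6 h, 1 was higher and 6 were lower at 24 h (35% beside 13.2% of all genes), Ccn1 (-1.25 ± 0.12) and Col4a1 (-0.64 ± 0.11) among the lower. Between 6 h and 1 h, 4 were higher and 3 lower at 6 h (35% beside 17.4% of all genes). At 24 h against control, limma called 0 of 20, and 6 had an unadjusted p under 0.05 (30% beside 19.9% of all genes). With the block, 1 higher and 4 lower were called at 1 h (4.51% and 4.44% of all genes). At 6 h these were 7 and 3 (12.5% and 16.2% of all genes), and at 24 h 0 and 4 (1.96% and 3.29%). Between 6 h and 1 h they were 7 higher and 4 lower (11.5% and 12.5% of all genes). Between 24 h and 6 h they were 1 higher and 8 lower (9.69% and 9.59% of all genes).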

How the data were processed

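RNA of 8 cultures was measured on 1-colour Illumina Mouse8 V2 arrays. Per the file headers, the deposited raw table gives a summary signal, a linear intensity not yet normalised, and a detection p-value as exported by the authors. Array medians differed and low values stayed above 0, as in signals without background subtraction. The authors' second table holds normalised intensity, linear and not centred (median 129.8 or 129.9, Spearman correlation 1.00 with the raw array), with the method not stated in the labels or headers. GenomeStudio 1.9.0 is named in the submitters' processing notes. In limma 3.58.1 (R 4.3.3), signals were background corrected by normexp from the detection p (offset 16), quantile normalised and put on the log2 scale. Each gene was represented by its brightest kept probe (11325 of 23978 probes with 1 gene symbol; 8183 of 16593 genes). The platform annotation gave 1719 probes no symbol and 0 several. lmFit and eBayes ran over all 8 arrays (4 residual degrees of freedom, two-sided), without a block, and the test was checked on simulated data. That a letter marks 1 repeat is implied by the labels and not stated. The difference of a minus b correlated between groups at 0.194 to 0.443 across genes, and results with that letter blocked are printed where the call of a member changed, and as counts for the other lists. The number of arrays limits the precision. Members are described in full where called, for integrins and Cd44, or where the block changed a call, and by range otherwise. For each other list, at most 4 called genes are named per comparison. Alternatives were no background correction, median scaling, the authors' values, offset 50, no detection filter, the mean of the kept probes, the block, and leaving out each array. Members and lists were chosen with earlier results of these data known.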

Additional observations from a re-analysis of the deposited data

Results flagged for a closer look

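In 18 cases the level of a member differed between 2 times in HGF by the test of the difference itself, from the same limma fit. Without a control at each time, HGF and time in 2% serum cannot be told apart here. Between 6 h and 1 h, the log2 differences were 2.07 for Itga6, 1.34 for Cd44, 0.91 for Itgav, 0.71 for Itgb6, 0.56 for Actn1, 0.48 for Fermt2, -0.60 for Itgb5 and -0.68 for Bcar1. Between 24 h and 6 h, they were 1.88 for Itgb7, 1.11 for Itga7, 0.69 for Itgb5, -0.56 for Actn1, -0.80 for Fermt2, -0.83 for Itgb6, -0.93 for Itgav, -0.93 for Ptk2b, -1.85 for Itga6 and -1.86 for Cd44. For Itgb7 and Itga7, both arrays at 24 h lay above all 6 others and both at 6 h below all 6 others.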

How the results depend on the processing

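All 30 calls of members in the 5 comparisons kept their direction in each of 15 alternative fits (7 processing choices and 8 fits with 1 array left out). Of the 30, 20 stayed called under all 7 choices, 9 in all 8 left-out fits, and 9 in all 15: Cd44 and Itga6 in all 3 comparisons in which they were called, Itgb7 at 6 h and between 24 h and 6 h, and Itgav at 6 h. Of 1 member called at 1 h, there were 3 without background correction, 3 with the authors' normalised values, 3 with offset 50, 4 with the replicate block, and 0 to 1 with an array left out. The 11 called at 6 h became 4 to 11 with an array left out (4 without control replicate a, 7 without control replicate b, 7 without HGF 6 h replicate a and 6 without HGF 6 h replicate b), and 8 to 14 otherwise. With the authors' values 9 rose and 4 fell at 6 h (24.8% of all genes called), and 2 rose and 1 fell at 1 h (6.34% of all genes called). The share of all genes called moved as well. At 1 h it was 4.78% as reported, 6.22% without background correction, 5.94% with offset 50 and 8.95% with the block. At 6 h it was 21.4% as reported, 15.7% with median scaling (8 members) and 28.6% with the block (14 members). At 24 h, 0 became 1 with the block and stayed 0 in the left-out fits. Between 6 h and 1 h, 8 became 3 with median scaling (3 higher, 0 lower) and 2 to 8 with an array left out (2 without HGF 1 h replicate a or HGF 6 h replicate b, 4 without HGF 6 h replicate a, 5 without HGF 1 h replicate b). Between 24 h and 6 h, 10 became 3 to 10 with an array left out (3 without HGF 24 h replicate a, 4 without HGF 24 h replicate b or HGF 6 h replicate a, 6 without HGF 6 h replicate b). The cause was not tested, except that left-out fits hold fewer arrays. Against control at 1 h and 6 h, those fits also called fewer of all genes. Median scaling moved the median of all genes at 6 h from -0.03 to -0.16, and relative to it the members' median was 0.42 as reported, 0.38 with median scaling, 0.29 without background correction, 0.28 with the authors' values, 0.32 with offset 50, and 0.14 to 0.42 with an array left out (0.14 without HGF 6 h replicate b). At 1 h and 24 h the members' median lay within 0.1 of 0 in every fit, and it turned negative at 24 h with median scaling (-0.05) and without HGF 24 h replicate b (-0.01). The block changed no call of a member other than those given above. Tln1, Ajuba and Enah lay at background in some groups, which limits their values to bounds.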

Other observations

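The arrays of a replicate pair lay further apart for members than for genes in general at 1 h, with a median absolute difference of 0.31 beside 0.17 over all genes, while at 24 h it was 0.17 beside 0.14. Among the members, Itga2 was higher on replicate a than on replicate b in every group, by 0.66 in control cells, 1.03 at 1 h, 0.52 at 6 h and 0.52 at 24 h. Itgav was lower on replicate a in every group, by 0.31, 0.35, 0.36 and 0.39 in the same order. Of 25 members with a promoter entry, 17 held the GC box letters GGGCGG on either strand in the 250 bases before a start, beside 32.7% of all 32851 windows. A gene with several starts counts if any of its windows holds the letters, so genes stand beside single windows here.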
